A study of Mus musculus with 124 samples.

Results

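Many genes of the brain are made as several transcripts, and the 300 genes described here are those of the mouse dorsal dentate gyrus that had several abundant ones. Expected counts (read numbers estimated for each RefSeq transcript) had been deposited for 35034 transcripts of 24409 gene names in 12 polyA RNA libraries. A gene was a member when at least 3 of its transcripts had a mean of 100 or more expected counts over the 12 libraries. 461 genes met this, and the 300 with the highest summed mean were kept, with 1331 transcripts between them. The members were thus chosen by their mean abundance, which is given as a description. The choice did not use the difference between the groups, which was therefore tested.

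The hCG group held 6 libraries from offspring of the group exposed to human chorionic gonadotropin, the hormone that triggers ovulation, and the Ctrl group held 6 libraries from offspring of unexposed controls. Per the labels, exposed females in natural estrus received 7.5 IU of hCG intraperitoneally with no PMSG before it, and the tissue came from mice aged 8 weeks that were anaesthetised with tribromoethanol and perfused. The labels describe control females housed with a vasectomised male for egg collection, and do not say how the control offspring were conceived. No sex, litter or pooling is given for the dentate gyrus libraries, and the label that carries the group name is called genotype although no allele is named. Whether the libraries came from separate litters is not stated, so each p-value measures the spread between libraries. In this bulk tissue, fewer cells of a type and less RNA per cell cannot be told apart.

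A gene gives more than 1 transcript through alternative start sites, alternative splicing or alternative ends, and neurons use this widely to vary the channels, adhesion molecules and kinases at their synapses. RNA-binding proteins of the SR and hnRNP families, and CLK kinases that phosphorylate SR proteins, choose among the possible splice forms. The measure used here is the share of a transcript, which is its expected count as a percent of all counts of its gene in that library. It is a share of counts and not of molecules, because longer transcripts give more reads and transcript lengths were not used.

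The libraries held 14991582 to 17859654 expected counts, and 10.3% to 10.5% of them fell in the members. hCG replicate 6 stood apart from the rest. The summed level of 20 choroid plexus, ependymal and meningeal marker genes was 10642 CPM in that library. It was 80.6 to 360.7 CPM in the other hCG libraries and 67.2 to 319.8 CPM in Ctrl. CPM are counts scaled to the library's total after the TMM correction named in the methods. The dentate granule neuron list, which fits the labelled tissue, summed to 3143 to 3873 CPM in hCG and 2379 to 3691 CPM in Ctrl, with 0 of its 16 genes at 0. Of these 16 genes, 5 were higher and 1 lower in hCG by the test of gene totals described below, where 4.66% of all genes were higher and 3.2% lower. By the same test 4 of 17 microglia, 2 of 16 endothelial and mural and 1 of 12 interneuron markers were higher and 0 lower, and 1 of 20 oligodendrocyte markers was lower. None of the 20 astrocyte, 14 other hippocampal neuron and 14 tested choroid list genes passed it. Microglia markers summed to 591.2 to 707.3 CPM in hCG and 507.7 to 635.2 CPM in Ctrl, and endothelial and mural markers to 310.7 to 725 CPM in hCG and 280.1 to 470.9 CPM in Ctrl. Each of these pairs of ranges overlapped. Their part in the results below was not tested.

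Dclk1 was the only member whose transcript shares passed the threshold (adjusted p below 0.05) in the main test, made with edgeR. It encodes doublecortin-like kinase 1, a microtubule-associated kinase of developing and adult neurons, and lies on chromosome 3 from 55242303 to 55539068 (GRCm38.p6, plus strand). It is made from more than 1 start. The RefSeq promoter table holds 2 start windows for it, 219364 bases apart. Each window is the 250 bases before a start. Both are shown because the share of 1 Dclk1 transcript differed and the gene's transcripts may begin at either place. The first window ends past the listed start of the gene, so part of it lies inside the listed span. The table does not say which transcript uses which window. Capitals mark CG dinucleotides.
Dclk1 upstream window, chr3:55242114-55242363, plus strand: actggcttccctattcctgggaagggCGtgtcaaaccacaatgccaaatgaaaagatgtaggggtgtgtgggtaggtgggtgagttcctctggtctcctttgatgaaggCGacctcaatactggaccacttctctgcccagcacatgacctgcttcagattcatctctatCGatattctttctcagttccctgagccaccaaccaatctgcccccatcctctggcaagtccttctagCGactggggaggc
Dclk1 downstream window, chr3:55461478-55461727, plus strand: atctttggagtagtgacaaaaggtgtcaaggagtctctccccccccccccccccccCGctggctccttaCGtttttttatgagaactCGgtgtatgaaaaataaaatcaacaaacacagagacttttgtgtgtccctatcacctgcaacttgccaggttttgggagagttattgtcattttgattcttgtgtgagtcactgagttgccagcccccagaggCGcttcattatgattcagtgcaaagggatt
Each window held 4 CG dinucleotides, against a median of 6 over 32851 windows of the table, of which 44.4% held 4 or fewer. Their GC content was 52.4% and 46.8%, against a median of 52.4%.

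All 7 Dclk1 transcripts were abundant. The transcript NM_001111051 made up 5.72, 10.7, 8.07, 7.80, 4.24 and 13.7% of Dclk1 counts in hCG libraries 1 to 6, against 2.84, 1.54, 2.47, 0.616, 5.18 and 3.25% in Ctrl libraries 1 to 6. hCG replicate 5, the lowest of its group, lay below Ctrl replicate 5, the highest of its group, and the other 5 hCG libraries lay above all Ctrl libraries. The share averaged 8.37 ± 3.41% in hCG and 2.65 ± 1.56% in Ctrl (SD, n = 6 each), a difference of 5.72 ± 1.53 points (SE). edgeR's test of transcript usage on a quasi-likelihood fit gave a log2 difference of 1.63 (adjusted p = 3.26e-04 over 7908 transcripts). That difference is from the whole gene, the transcript itself included. Without hCG replicate 6, which had the highest share, this log2 difference was 1.44 (adjusted p = 0.0139). Under a linear model of the logit of the share, the adjusted p was 0.164.

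The level of NM_001111051 was 51.7 ± 18.9 CPM in hCG and 15.7 ± 9.63 CPM in Ctrl. The Dclk1 total was 626.8 ± 39.8 CPM in hCG and 588.9 ± 28.8 CPM in Ctrl (log2 fold change 0.09 ± 0.05 SE, edgeR adjusted p = 0.313), so the 2 Dclk1 quantities gave different results. The share of NM_001195538 ran from 16.95 to 23.4% with a median of 20.1% in hCG, and from 24.9 to 26.9% with a median of 26.2% in Ctrl. These ranges did not overlap, the hCG libraries being lower, yet edgeR's adjusted p was 1. The most abundant Dclk1 transcript, NM_001111052, held 44.4 ± 3.004% in hCG and 40.9 ± 3.19% in Ctrl. NM_019978 held 6.00 ± 2.23% in hCG and 9.75 ± 2.71% in Ctrl (edgeR adjusted p = 0.646).

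**Figure D1:**
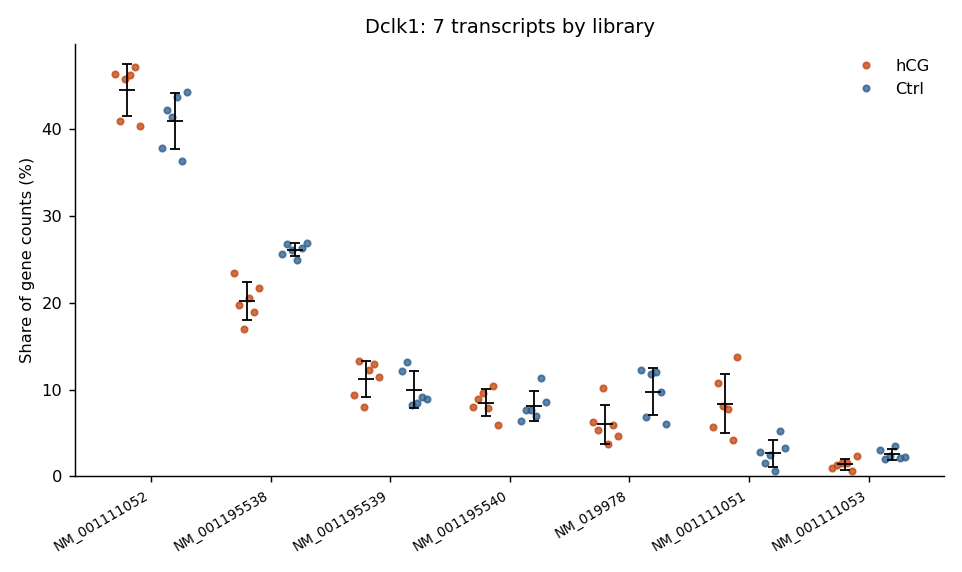
Share of each of 7 Dclk1 transcripts (percent of Dclk1 counts, vertical axis) in 6 hCG libraries (left of each pair) and 6 Ctrl libraries (right), with mean and SD in black. NM_001111051 averaged 8.37% in hCG and 2.65% in Ctrl, and NM_001195538 averaged 20.2% in hCG and 26.1% in Ctrl with no overlap.

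Over all members the main test called few shares. The test covered 1170 member transcripts in 299 members, and the remaining member was left out because its name had been turned into a date. The other 161 member transcripts did not pass the low-count filter or belonged to it. With edgeR 1 of the 1170 was higher and 0 were lower, where 0.0126% of all 7908 transcripts were higher and 0% lower. By gene, 1 of 299 members was called, against 0.0322% of 3107 genes. Of the member transcripts, 80 (6.84%) had an unadjusted p under 0.05, against 2.06% of all transcripts tested. The median unadjusted p of edgeR's test was 0.591 in member transcripts and 0.739 in all, so its p-values ran high. Members were chosen for high counts, so the transcripts of the whole table are not a matched background here or below. The median absolute difference of a share was 1.56 points in member transcripts and 2.22 points in all.

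The number of calls depended on the test, and the tests did not all make the same contrast. edgeR set each transcript against its whole gene, itself included, and the DESeq2 and logit models set it against the gene's other transcripts. limma's diffSplice called 21 member transcripts higher (1.79%) and 15 lower (1.28%), against 0.746% and 0.733% of all transcripts, and 22 of 299 member genes, against 2.29% of all genes. A DESeq2 model of each transcript against the others of its gene called 25 higher (2.14%) and 33 lower (2.82%), against 1.4% and 1.59% of all, and 33 of 299 member genes, against 4.6% of all genes. The linear model of the logit called 1 higher and 1 lower, against 0.0506% and 0.0379% of all, and 0 of 299 member genes, against 0.0966% of all genes. In 19 member transcripts of 15 genes, both limma and DESeq2 passed the threshold, 12 of them (1.03%) higher and 7 (0.598%) lower in hCG, against 0.569% and 0.531% of all transcripts. The 6 hCG values lay wholly above or below the 6 Ctrl values in 25 member transcripts of 23 genes, 9 (0.769%) higher and 16 (1.37%) lower. Of all 7908 transcripts, 0.506% were higher and 0.658% lower without overlap.

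**Figure D2:**
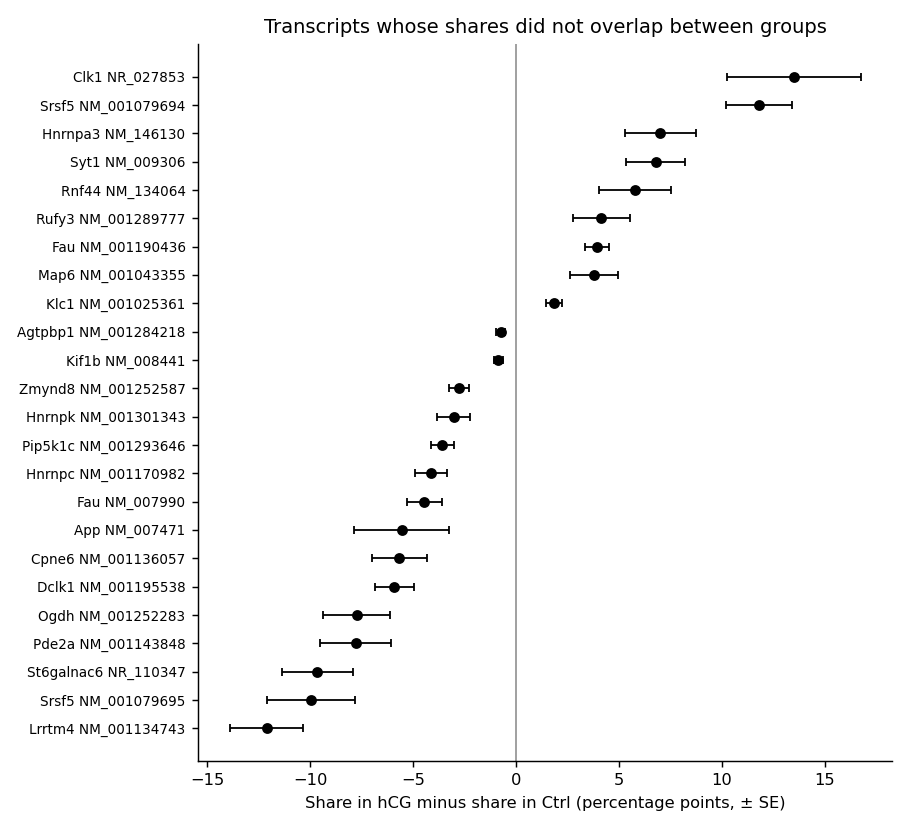
Difference in share (hCG minus Ctrl, percentage points, with SE) of 24 of the 25 member transcripts whose 6 hCG and 6 Ctrl values did not overlap. 9 lie right of 0 (higher in hCG) and 15 left of it, and none of them passed the edgeR threshold.

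Among the genes described next, Pde2a, Syt1 and Gria1 were named by a rule stated in the methods, and the others, down to Fau, were picked after their values were seen. None of their transcripts passed the edgeR threshold. Pde2a, a cGMP-stimulated phosphodiesterase that degrades cyclic nucleotides in hippocampal neurons, lies on chromosome 7 from 101421691 to 101512829 and has 5 start windows in the RefSeq table. Its transcript NM_001008548 held 36.1 to 52.3% (median 45.8%) in hCG and 15.5 to 44.5% (median 27.6%) in Ctrl, where 1 Ctrl library reached into the hCG range. The difference was 16.3 ± 4.53 points (edgeR adjusted p = 0.0825, limma 4.58e-04, DESeq2 0.0358). NM_001143848 held 6.39 to 9.66% in hCG and 11.1 to 21.6% in Ctrl, with no overlap and the hCG libraries lower (edgeR adjusted p = 0.0922, limma 0.0113, DESeq2 3.43e-04). The Pde2a total was 313.6 ± 28.5 CPM in hCG and 306.2 ± 33.3 CPM in Ctrl (edgeR adjusted p = 0.825).

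Clk1 encodes one of the kinases that phosphorylate SR splicing proteins. Its non-coding transcript NR_027853 held 13.6 to 34.1% (median 20.6%) in hCG and 3.53 to 12.6% (median 7.19%) in Ctrl. All hCG libraries lay above all Ctrl libraries, with a difference of 13.5 ± 3.25 points (edgeR adjusted p = 0.0922, limma 0.00542, DESeq2 9.04e-04). The coding transcript NM_001042634 held 34.1 ± 7.58% in hCG and 50.3 ± 7.78% in Ctrl (edgeR adjusted p = 1, limma 0.0262, DESeq2 0.0377). The second non-coding transcript, NR_027854, held 44.9 ± 3.50% in hCG and 42.2 ± 6.79% in Ctrl. The Clk1 total was 107.8 ± 21.2 CPM in hCG and 102.2 ± 9.81 CPM in Ctrl (edgeR adjusted p = 0.728).

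Srsf5 is an SR protein that binds exonic enhancers. Its transcript NM_001079694 held 54.3 to 58.8% in hCG and 39.3 to 49.3% in Ctrl, a difference of 11.8 ± 1.60 points. NM_001079695 held 30.2 to 37.4% in hCG and 37.6 to 49.0% in Ctrl. Neither pair of ranges overlapped. The tools disagreed on the first of them, with adjusted p = 1 in edgeR, 0.132 in limma and 1.96e-06 in DESeq2.

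The hnRNP genes Hnrnpa3, Hnrnpc and Hnrnpk each had a transcript without overlap. Hnrnpa3 NM_146130 held 75.4 to 81.5% in hCG and 65.7 to 74.7% in Ctrl, and was higher in hCG (edgeR adjusted p = 1, limma 0.0447, DESeq2 0.0204). Hnrnpc NM_001170982 held 12.04 to 15.01% in hCG and 15.7 to 20.1% in Ctrl, and Hnrnpk NM_001301343 held 31.4 to 35.6% in hCG and 36.1 to 37.4% in Ctrl. These proteins package nascent RNA and influence splice site choice. Of the 25 members on the splicing and RNA-binding list, 104 transcripts were tested, of which 3 were higher and 3 lower without overlap, where 2.14% of all member transcripts had no overlap and 0.506% of all 7908 transcripts were higher and 0.658% lower in that way.

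Among synaptic genes, Syt1, the calcium sensor of transmitter release, had a leading transcript NM_009306 with 71.8 to 77.5% in hCG and 63.6 to 71.2% in Ctrl, again without overlap (edgeR adjusted p = 1, limma 0.112, DESeq2 0.00741). Lrrtm4 is a postsynaptic adhesion protein of dentate granule neurons. Its NM_001134743 held 26.8 to 30.3% in hCG and 35.8 to 45.9% in Ctrl, 12.1 points lower in hCG with an SE of 1.79 (edgeR adjusted p = 1, limma 0.122, DESeq2 7.44e-06). Lrrtm4 NM_001282102 held 22.7 to 47.6% in hCG and 5.76 to 32.6% in Ctrl, with overlap, and averaged 16.6 points higher in hCG. It passed the threshold in both limma and DESeq2. Gria1, an AMPA receptor subunit spliced into flip and flop forms that the table does not name, had NM_001113325 at 15.2 ± 3.76% in hCG and 25.7 ± 3.80% in Ctrl. Its NM_008165 held 81.5 ± 3.04% in hCG and 73.6 ± 4.15% in Ctrl. The Gria1 ranges overlapped for both (edgeR adjusted p = 1 for each, limma 0.0583 and 0.0806, DESeq2 0.00317 and 0.0377).

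Pip5k1c makes the lipid that synaptic vesicle recycling needs. Its minor transcript NM_001293646 held 3.08 to 4.27% in hCG and 5.54 to 8.84% in Ctrl, without overlap (edgeR adjusted p = 0.512, limma 0.00542, logit 0.0386, DESeq2 3.15e-07). Klc1, a kinesin light chain, had NM_001025361 at 3.24 to 5.08% in hCG and 1.41 to 2.99% in Ctrl (edgeR adjusted p = 0.872). Ogdh, a subunit of the mitochondrial 2-oxoglutarate dehydrogenase, had NM_001252283 at 8.20 to 16.8% in hCG and 18.6 to 24.3% in Ctrl (edgeR adjusted p = 0.559). Fau, which encodes a ribosomal protein fused to a ubiquitin-like part, had 2 transcripts without overlap that ran in opposite directions. NM_001190436 averaged 34.3 ± 1.25% in hCG and 30.4 ± 0.72% in Ctrl, and NM_007990 averaged 58.8 ± 1.72% in hCG and 63.3 ± 1.14% in Ctrl. The other transcripts without overlap that are reported belonged to Agtpbp1, App, Cpne6, Kif1b, Map6, Rnf44, Rufy3, St6galnac6 and Zmynd8, with differences of 0.73 to 9.65 points.

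**Figure D3:**
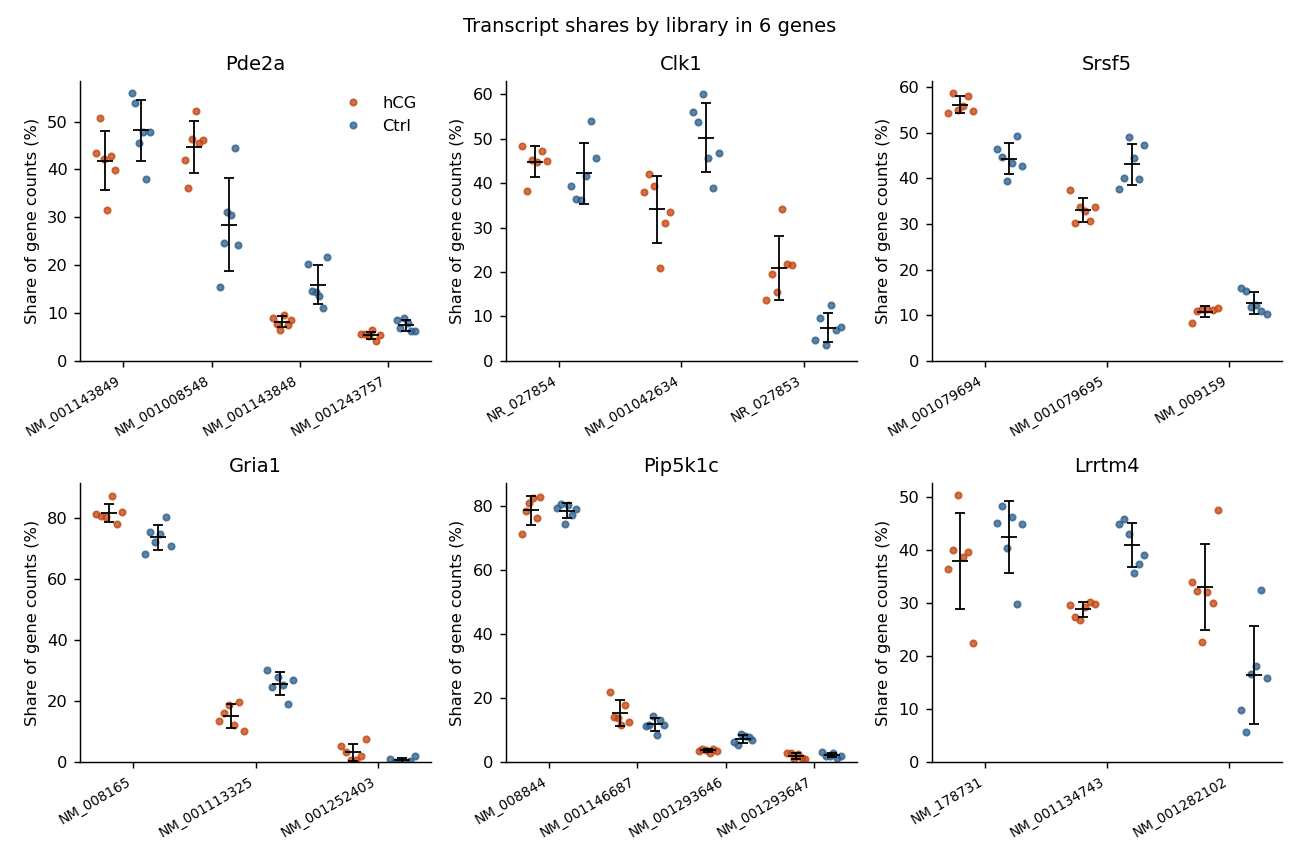
Shares of the abundant transcripts (percent of the gene's counts) of Pde2a, Clk1, Srsf5, Gria1, Pip5k1c and Lrrtm4 by library, hCG left and Ctrl right of each pair, with mean and SD. Groups are apart for Clk1 NR_027853 and Srsf5 NM_001079694, higher in hCG. They are also apart for Pde2a NM_001143848, Srsf5 NM_001079695, Pip5k1c NM_001293646 and Lrrtm4 NM_001134743, lower in hCG.

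In most members 1 transcript led. The leading transcript, by mean share over the 12 libraries, held a median of 59.3% of its gene over the 300 members, from 24.5% to 99.6%. It held 80% or more in 43 members, 50 to 80% in 165 and less than 50% in 92. Camk2a and Camk2b, the subunits of the calcium and calmodulin kinase of synaptic plasticity, were at the top. Camk2a NM_177407 held 99.5 ± 0.09% in hCG and 99.6 ± 0.09% in Ctrl, and Camk2b NM_007595 held 99.0 ± 0.15% in hCG and 99.0 ± 0.22% in Ctrl. Their other abundant transcripts met the minimum because these genes are so highly expressed. At the other end Ubap2l, Sema6d, Gpm6b and Chtop had the lowest leading shares, that of Ubap2l NM_001165984 being 22.7% in hCG and 26.3% in Ctrl. Gpm6b, a membrane proteolipid, had 8 abundant transcripts, the largest number. Most members (191 of 300) had exactly 3.

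The median over members of the leading share was 58.6 to 60.6% in hCG libraries and 57.8 to 59.1% in Ctrl libraries, with means of 59.5 ± 0.741% in hCG and 58.6 ± 0.598% in Ctrl (no test was made). Of 299 leading transcripts tested, 154 had the higher mean share in hCG. Shares of abundant transcripts varied between libraries of a group by a median SD of 3.06 points per member, from 0.0786 in Camk2a to 20.6 in Ddx6, an RNA helicase of translational repression.

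The other 4 of the 6 most abundant members were Psap, Sptan1, Olfm1 and App. Sptan1, the brain spectrin, had NM_001177667 at 93.2 ± 0.61% in hCG and 91.8 ± 1.31% in Ctrl (edgeR adjusted p = 1). Olfm1, a secreted glycoprotein of neurons, had NM_019498 at 39.8 to 48.9% in hCG and 34.5 to 41.9% in Ctrl, higher by 7.10 ± 1.71 points (edgeR adjusted p = 1, limma 0.00947, DESeq2 0.0216). Psap, the precursor of the lysosomal saposins, had NM_011179 at 79.5 to 82.9% in 5 hCG libraries, 60.1% in hCG replicate 6 and 79.5 to 82.8% in Ctrl. In hCG replicate 6 NM_001146120 made up 33.5% of Psap, against 11.1 to 14.2% in the other hCG libraries and 11.2 to 15.1% in Ctrl.

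App, the amyloid precursor protein, also had its lowest leading share in that library. App NM_007471 held 87.6, 87.9, 87.2, 81.8, 87.7 and 74.4% in hCG libraries 1 to 6, and 88.5 to 93.0% in Ctrl. All hCG libraries, also without replicate 6, lay below all Ctrl libraries (edgeR adjusted p = 1, limma 0.0613, DESeq2 0.149). The choroid plexus marker level of hCG replicate 6 is given above, and its part in the Psap and App shares was not tested. Enpp2, a secreted lysophospholipase abundant in choroid plexus and oligodendrocytes, had the largest log2 fold change of a member total, with 3375 CPM in hCG replicate 6, 50.001 to 77.4 CPM in the other hCG libraries and 38.3 to 92.0 CPM in Ctrl. Its log2 fold change was 3.09 ± 1.26 with all libraries (edgeR adjusted p = 0.169) and -0.15 ± 0.25 without hCG replicate 6 (adjusted p = 0.78).

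The transcript with the highest mean share differed between the groups in 16 of 300 members (5.33%), where it differed in 6.73% of the 3107 genes with at least 2 tested transcripts. No test was made of this. The 5 with the largest difference were Arhgef2, Pde2a, Brd2, Gse1 and Adarb1. Arhgef2, a microtubule-bound exchange factor for RhoA, was led in hCG by NM_008487 at 48.6 ± 14.2%, which held 31.7 ± 11.01% in Ctrl. In Ctrl it was led by NM_001198912, at 36.8 ± 13.8% in hCG and 52.7 ± 14.6% in Ctrl. The Arhgef2 ranges overlapped widely (edgeR adjusted p = 1 for each).

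Brd2, a bromodomain reader of acetylated histones, was led in hCG by the non-coding NR_037970 (41.0 ± 7.15% in hCG and 31.4 ± 10.9% in Ctrl) and in Ctrl by NM_010238 (30.4 ± 9.93% in hCG and 46.6 ± 14.7% in Ctrl). Gse1, a component of histone demethylase complexes, was led in hCG by NM_001145897 at 39.1 ± 9.19%, against 30.9 ± 10.2% in Ctrl. Its NM_001145896 held 26.8 ± 6.24% in hCG and 38.0 ± 3.71% in Ctrl. Adarb1, an enzyme that edits adenosine to inosine in glutamate receptor RNAs, was led in hCG by NM_001024837 (34.2 ± 9.81% in hCG and 26.2 ± 11.2% in Ctrl) and in Ctrl by NM_130895 (31.1 ± 11.3% in hCG and 34.4 ± 7.09% in Ctrl). In Ctrl the non-coding NR_004429 had nearly the same mean share as NM_130895, and a higher median (34.0% against 33.4%). The means of the non-coding Adarb1 transcripts were further apart between the groups. They were 16.5 ± 11.9% in hCG and 34.3 ± 6.47% in Ctrl for NR_004429. For NR_021486 they were 18.2 ± 13.1% in hCG and 5.09 ± 4.71% in Ctrl. Each of these ranges overlapped and edgeR gave an adjusted p of 1 for each. With limma only Brd2 NM_010238 among them passed the threshold (adjusted p = 0.0388, DESeq2 0.215). With DESeq2 Gse1 NM_001145896 passed it (adjusted p = 0.0377, limma 0.132).

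**Figure D4:**
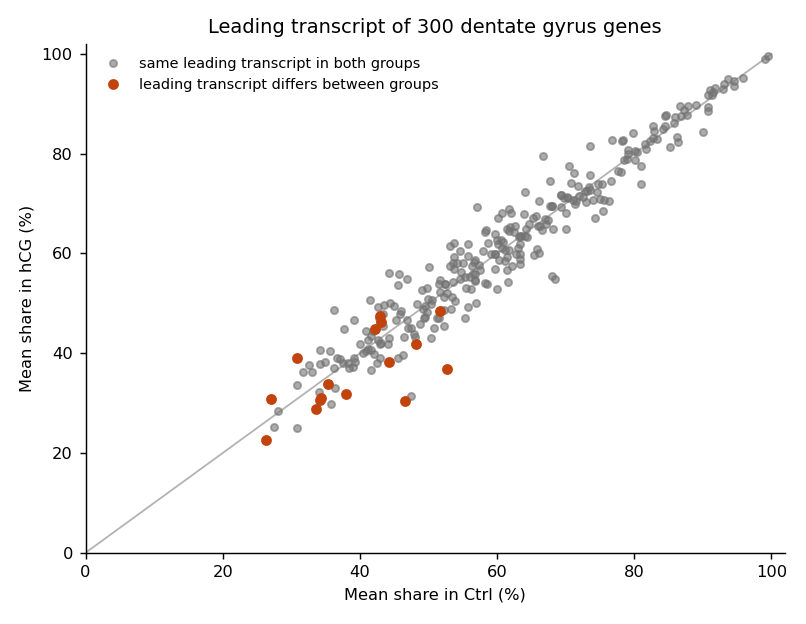
Mean share (percent) of the leading transcript of each of 300 members in hCG (vertical) against Ctrl (horizontal), where the line marks equal shares. The 16 orange points are members whose highest transcript differs between groups.

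Several functional lists were led by members whose leading share was similar in both groups by value. Celf2, an RNA-binding splicing regulator, had NM_001110231 at 55.9 ± 2.39% in hCG and 56.8 ± 1.51% in Ctrl. Gnas, the stimulatory G protein subunit, had NM_201616 at 74.0 ± 1.66% in hCG and 74.7 ± 1.17% in Ctrl. Gtf2i, a transcription factor, had NM_010365 at 72.5 ± 1.71% in hCG and 73.0 ± 1.80% in Ctrl. Ptprs, a receptor phosphatase of axon guidance, had NM_001252453 at 87.4 ± 2.95% in hCG and 85.9 ± 3.13% in Ctrl. Atp6v0a1, a proton pump subunit, had NM_016920 at 88.5 ± 0.67% in hCG and 90.7 ± 2.73% in Ctrl.

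Among glial genes Mbp, myelin basic protein, had NM_001025259 at 57.5 ± 4.47% in hCG and 62.2 ± 3.998% in Ctrl. Slc4a4, the astrocytic bicarbonate cotransporter, had NM_018760 at 54.8 ± 9.86% in hCG and 46.9 ± 8.43% in Ctrl. For each of these 7 genes edgeR's adjusted p was 1. No gene of the microglia, granule neuron, other hippocampal neuron, interneuron, vascular or choroid lists was a member. The lists were written with earlier results of these data known.

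The summed counts of each member gene, its total, were tested next. By edgeR's quasi-likelihood test over 13853 genes, 32 of 299 members (10.7%) were higher and 2 (0.669%) lower in hCG, against 4.66% of all genes higher and 3.2% lower. Here too the members were chosen for high counts, and all genes were not matched for this. The median log2 fold change of the members was 0.01, and 155 of 299 were above 0. Of the 34 members with a changed total, 3 also had a transcript share without overlap, namely Hnrnpc, Map6 and Pip5k1c.

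The members that follow were named after their values were seen, except Gse1. Srrt, which links the cap-binding complex to RNA processing, rose by 0.60 ± 0.09 on the log2 scale (173.2 ± 16.9 CPM in hCG and 114.3 ± 16.9 in Ctrl, edgeR adjusted p = 0.00138). Gse1 rose by 0.50 ± 0.08 (251.1 ± 27.7 CPM in hCG and 178.1 ± 19.1 in Ctrl, adjusted p = 0.00233). Prkag2, a regulatory subunit of AMP-activated kinase, rose by 0.45 ± 0.06 (159.2 ± 9.62 CPM in hCG and 116.6 ± 10.9 in Ctrl, adjusted p = 8.69e-04). All 6 hCG libraries of these 3 genes lay above the Ctrl median.

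At the axon initial segment, Ank3, which anchors sodium channels, rose by 0.28 ± 0.05 (272.0 ± 10.2 CPM in hCG and 224.0 ± 13.4 in Ctrl, edgeR adjusted p = 0.00282). Its partner Nfasc rose by 0.34 ± 0.06 (268.3 ± 18.9 CPM in hCG and 211.4 ± 11.9 in Ctrl, adjusted p = 0.00196). Kcnip2, a potassium channel subunit, rose by 0.42 ± 0.06 (327.0 ± 26.9 CPM in hCG and 245.2 ± 11.7 in Ctrl, adjusted p = 6.44e-04). By list, the counts of members were small, to be read against the 10.7% of all members and 4.66% of all genes that were higher. On the ion channel list 3 of 7 members rose, on the postsynaptic list 3 of 12, on the chromatin list 3 of 15, on the cytoskeletal list 2 of 25, on the cell adhesion list 1 of 8 and on the splicing list 1 of 25. None of the 5 synaptic vesicle, 6 G protein, 2 amyloid, 2 myelin and 1 astrocyte members passed the threshold, and of the 13 kinases and phosphatases 0 rose and 1 fell. Over all 51 genes of the ion channel list, members or not, 9 were higher and 3 lower. The 2 members that fell were Prepl, a serine hydrolase, by 0.29 ± 0.06 (edgeR adjusted p = 0.00786), and Pip5k1c, by 0.20 ± 0.05 (379.3 ± 20.8 CPM in hCG and 435.9 ± 16.5 in Ctrl, adjusted p = 0.0193). With the replicate numbers as a block, the Pip5k1c total missed the edgeR threshold (adjusted p = 0.0628). DESeq2's Wald test called 41 members (13.7%) higher and 10 (3.34%) lower, against 6.34% of all genes higher and 5.1% lower.

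**Figure D5:**
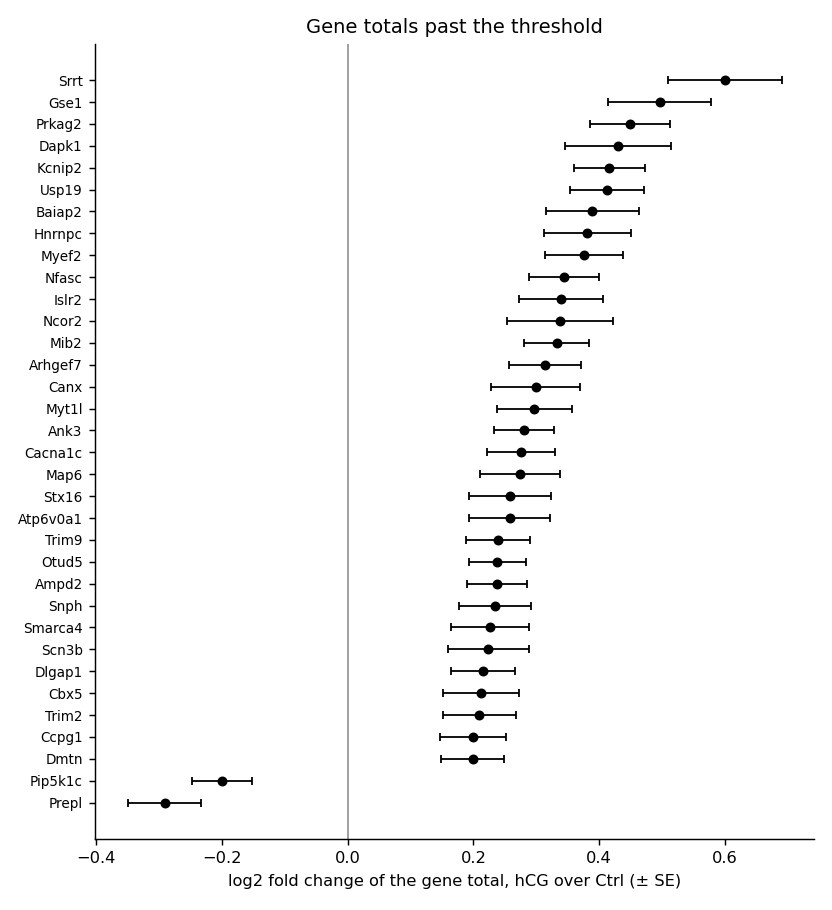
log2 fold change of the gene total (hCG over Ctrl, with SE) of the 34 members past the threshold in edgeR's quasi-likelihood test. 32 lie right of 0, up to 0.60 in Srrt, and 2 lie left of it, Prepl at -0.29 and Pip5k1c at -0.20.

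Genes that act on splicing were examined by their totals, members or not. Of 99 genes tested on the splicing and RNA-binding list, 12 were higher and 6 lower in hCG and the others did not pass the threshold, where 4.66% of all genes were higher and 3.2% lower. The median log2 fold change of the list was 0.04, against 0.00 over all genes. The 6 with the smallest p were none of them members. The cold-inducible RNA-binding proteins Rbm3 and Cirbp fell by 1.46 ± 0.11 and by 1.16 ± 0.10 on the log2 scale. Rbm3 was at 50.9 ± 10.9 CPM in hCG and 139.7 ± 9.50 in Ctrl, and Cirbp at 27.9 ± 3.90 CPM in hCG and 62.1 ± 8.79 in Ctrl (edgeR adjusted p = 5.71e-05 and 5.71e-05). Pspc1, a paraspeckle protein, fell by 0.39 ± 0.06 (adjusted p = 0.00129 in edgeR). Hnrnpm, Hnrnph1 and Tardbp, which bind introns and influence splice site use, rose by 0.42 ± 0.07, 0.36 ± 0.06 and 0.32 ± 0.06 (edgeR adjusted p = 0.00302, 0.00277 and 0.00374). Only Hnrnpc, with 275.2 ± 22.997 CPM in hCG and 211.3 ± 20.4 in Ctrl (adjusted p = 0.00457), was both a member and a called gene of that list, at a log2 fold change of 0.38 ± 0.07.

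At the edge of the rule, the last members by summed mean were Csrnp3 (1622 counts) and St6galnac6 (1621), and the first genes left out were Dlg1 (1616) and Sgsm1 (1603). The members whose least abundant needed transcript was nearest the minimum were Abi1 (109 counts) and Dctn2 (111), and Farsb (99.7) and Rpl38 (99.5) fell just short of it. In Mef2a, 2 abundant rows had the same values in every library, so their shares are uncertain. How the reads of these rows were assigned was not tested. The member listed under a date carries accessions of Septin8, a cytoskeletal GTPase. Its NM_001252332 held 57.5 ± 4.26% in hCG and 53.1 ± 4.54% in Ctrl, NM_001252333 held 34.2 ± 1.78% in hCG and 35.4 ± 2.54% in Ctrl, and NM_033144 held 8.30 ± 3.73% in hCG and 11.5 ± 3.33% in Ctrl.

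Locus length and start sites were compared as a description. The rule did not use them directly, but it required at least 3 transcripts per gene, which the other genes need not have. The comparison is therefore not independent of the rule. The RefSeq span had a median of 60724 bases in members and 24302 bases in the other 13470 genes tested. At least 2 start windows were listed for 124 of 300 members (41.3%) and for 16% of the others. Non-coding transcripts occurred in 32 members and were abundant in 24 of them. Meg3 and Tug1, both long non-coding RNAs, had 3 abundant non-coding transcripts each. Non-coding rows took 1.40 to 1.69% of member counts in hCG and 1.43 to 1.77% in Ctrl, so the groups overlapped.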

How the data were processed

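The authors deposited expected counts per RefSeq transcript for 12 dorsal dentate gyrus libraries, 6 per group, and every column was matched to a sample by its labels. The step that made this table is not given in the sources used here. Per the submitters' processing notes, the builds were mm10 and GRCm38. The oocyte, blastocyst and bisulfite data were not used here.

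Shares were computed from the deposited expected counts. 25 gene names (56 rows) had been turned into dates, 0.304% to 0.335% of a library, and stayed out of the fits. edgeR 4.0.16 in R 4.3.3 tested shares (diffSpliceDGE on a robust quasi-likelihood fit, with Simes' method by gene) and gene totals (quasi-likelihood F test). Counts were rounded before the fits, and TMM scaling and the default low-count filter (10 counts, 15 in total) were applied. Two-sided p-values were adjusted across the whole table (Benjamini-Hochberg), and the threshold was 0.05. CPM are TMM-scaled. Alternatives were limma 3.58.1 (diffSplice on voom values, and the logit of the share with 0.5 counts added), DESeq2 1.42.0 on rounded counts, its size factors, no filter, a minimum mean of 100, a replicate block and leaving out each library. The estimates carry an error of read assignment that no column gives.

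The rule for named genes took the members called for shares, the 6 most abundant, 5 whose leading transcript differed, the most abundant or a called member of each of the 12 gene lists (of 18) that held one, the edges of the abundance rule and 6 called splicing genes. Members and lists were chosen with earlier results of these data known. Libraries within a group differed by more than sampling noise (lowest chi-square per degree of freedom 6.30). Same-numbered hCG and Ctrl libraries were not closely correlated and were treated as unpaired. Such correlations cannot show whether they shared a litter or a batch. All 300 members matched the RefSeq table by accession, and sequences are RefSeq's on GRCm38.p6. The result of 1 gene is not reported here.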

Additional observations from a re-analysis of the deposited data

Results flagged for a closer look

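A single library lay far from the other 5 of its group in several shares, by Dixon's ratio over 6 libraries. By chance about 1 in 20 groups shows this, and 120 groups of values were examined. In the hCG group, hCG replicate 6 was low for Psap NM_011179 (60.1%), and it was high for the summed choroid plexus, ependymal and meningeal markers (10642 CPM) and for the Enpp2 total (3375 CPM). hCG replicate 2 was low for Clk1 NR_027854 (38.3%) and Agtpbp1 NM_001284218 (3.03%) and high for Map6 NM_001043355 (14.0%). hCG replicate 4 was low for Cpne6 NM_001136057 (55.0%). In the Ctrl group, Ctrl replicate 5 was low for Camk2b NM_007595 (98.6%) and high for Kif1b NM_008441 (3.17%).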

How the results depend on the processing

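The number of members called for shares (1 transcript higher, 0 lower, 1 gene with edgeR) depended on the test. limma's diffSplice called 21 transcripts higher and 15 lower in 22 member genes, and 117 transcripts over the whole table. DESeq2 called 25 higher and 33 lower in 33 member genes, and 237 over the whole table. The logit model called 1 higher and 1 lower in 0 member genes, and 7 over the whole table. The cause of these differences was not tested. Without the low-count filter edgeR called 3 transcripts of the whole table. With a minimum mean of 100 it called 2 of the members higher and 2 of the whole table. Leaving out 1 library gave 1 to 3 member transcripts higher, 0 to 2 lower and 1 to 4 member genes, and 1 to 7 transcripts of the whole table, the highest counts being without Ctrl replicate 5. Without hCG replicate 1, 5 or 6, or Ctrl replicate 2, 2 member genes were called, and without Ctrl replicate 5, 4. Dclk1 stayed past the threshold by gene in each of these 12 fits (adjusted p 1.81e-05 to 0.0379, the highest without hCG replicate 6), and missed it under the logit model (0.157).

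The libraries that share a replicate number between hCG and Ctrl were not closely correlated (correlations of same-numbered deviations from -0.149 to 0.175). Such correlations cannot show whether these numbers pair the libraries. With these numbers as a block, edgeR called 2 member transcripts higher and 2 lower, 4 over the whole table, and 1 member gene lower by total, Pip5k1c having missed the threshold (adjusted p = 0.0628). Totals of members were 32 higher and 2 lower, DESeq2's Wald test gave 10 lower, and leaving out 1 library gave 23 to 39 higher and 2 to 4 lower (4 without hCG replicate 1). The total of Atp6v0a1 lost its call in 7 of 16 alternatives. A minimum mean of 200 left 281 genes that met the abundance rule, in place of 461. Naming the date-like rows by accession, and summing only the abundant rows (295 members kept), were chosen after seeing the data and moved no count of calls past 1.5 times.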

Other observations

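Rbm3, which met the abundance rule but not the limit of 300, had a transcript whose share also differed in range. Rbm3 NM_016809 held 11.7 ± 0.970% in hCG and 5.48 ± 0.783% in Ctrl (SD, n = 6 each), 6.24 ± 0.51 points higher in hCG, with no overlap (edgeR adjusted p = 1, limma 0.00542, logit 0.0171, DESeq2 1.96e-11). Its 4 other abundant transcripts held 10.8, 37.1, 16.7 and 23.6% in hCG and 9.79, 39.3, 18.9 and 26.5% in Ctrl. The level of NM_016809 itself was 5.93 ± 1.15 CPM in hCG and 7.66 ± 1.21 CPM in Ctrl. Thus its share was higher in hCG although its mean level was lower. The gene was described after its values were seen, and its total is given in the report.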
